A study of Mus musculus with 3 samples.

Results

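Autophagy delivers parts of the cytoplasm to the lysosome, where acid hydrolases break them down. A kinase complex around ULK1 starts the process, a lipid kinase complex around Beclin 1 marks the membrane where the cup-shaped phagophore grows, and ubiquitin-like proteins of the ATG8 family are attached to that membrane and draw in cargo. In the exocrine pancreas, where acinar cells make and store digestive proenzymes, autophagy and lysosomal function are known to be disturbed in pancreatitis. The 38 genes described here cover these steps, from the initiation kinases to the proton pump of the lysosome. They were chosen by gene name, with earlier results of these data known. Every probe whose RefSeq accession belongs to any of these genes was taken. All 38 were on the array, among 21150 named genes, with 1 probe for 26 of them and 2 probes for 12.

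The arrays came from wild-type mice 48 h after pancreatitis induced with caerulein, a cholecystokinin analogue that overstimulates acinar cells. Cells of 3 groups were cut by laser microdissection from frozen pancreas of 3 mice: ADM cells (acinar-to-ductal metaplasia, the conversion of acinar cells towards a duct-like state), duct cells and acinar cells. All 3 groups had caerulein pancreatitis, and no untreated pancreas was analysed here. Each group had 1 array, and the sources used here do not say whether the RNA of an array came from a single mouse or from several pooled. The comparison asks how ADM cells stand beside the acinar and duct cells of the same inflamed organ. No test between groups is possible with 1 array each, so the differences below lack a check by replicates, and the precision of each value is limited by how few arrays there are.

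A level is the log2 signal of a probe minus the 75th percentile of its array, so that 0 is that percentile. Levels are compared between arrays for the same probe and never between probes. Where a probe was not well above background on an array, its side was set no lower than the dimmest signal well above background, and the result is a bound ("at least"). A bound that fell on the opposite side of 0 says nothing of direction and was set to 0. The ADM and duct arrays had 27676 and 27849 of 55664 probes well above background (49.7% for ADM), and the acinar array had 22654 (40.7%). Repeated spots of a probe gave a spread of 0.147 log2 units for a difference, which covers spotting and scanning only. Since RNA was taken from dissected tissue, fewer cells of a type and less RNA per cell cannot be told apart.

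Each gene is represented by its probe of highest average level, its standing probe. By these probes 33 of the 38 were well above background on all 3 arrays, beside 9539 of 21150 named genes. Becn1 and Atp6v0d2 were so on 2 arrays, Atg9a and Wipi1 on the acinar array alone, and Atg4a, a protease that processes ATG8 proteins, on none (levels −5.36 on ADM, −5.53 on duct and −4.25 on acinar). At least 2-fold differences in 1 or more comparisons were seen for 31 of the 37 genes compared (83.8%), beside 69.8% of all 14785 named genes compared. The 7 without one, by the standing probe, were Atg4a, the conjugation factor Atg16l1, the ATG8 protein Gabarap, the hydrolase Gla, the membrane protein Lamp1, the hydrolase activator Psap and the kinase Ulk2. Second probes of Ulk2 and Gabarap passed 2-fold, with values given below. Atg13, Atg14 and Becn1 were apart by at least 2-fold in all 3 comparisons.

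**Figure D1:**
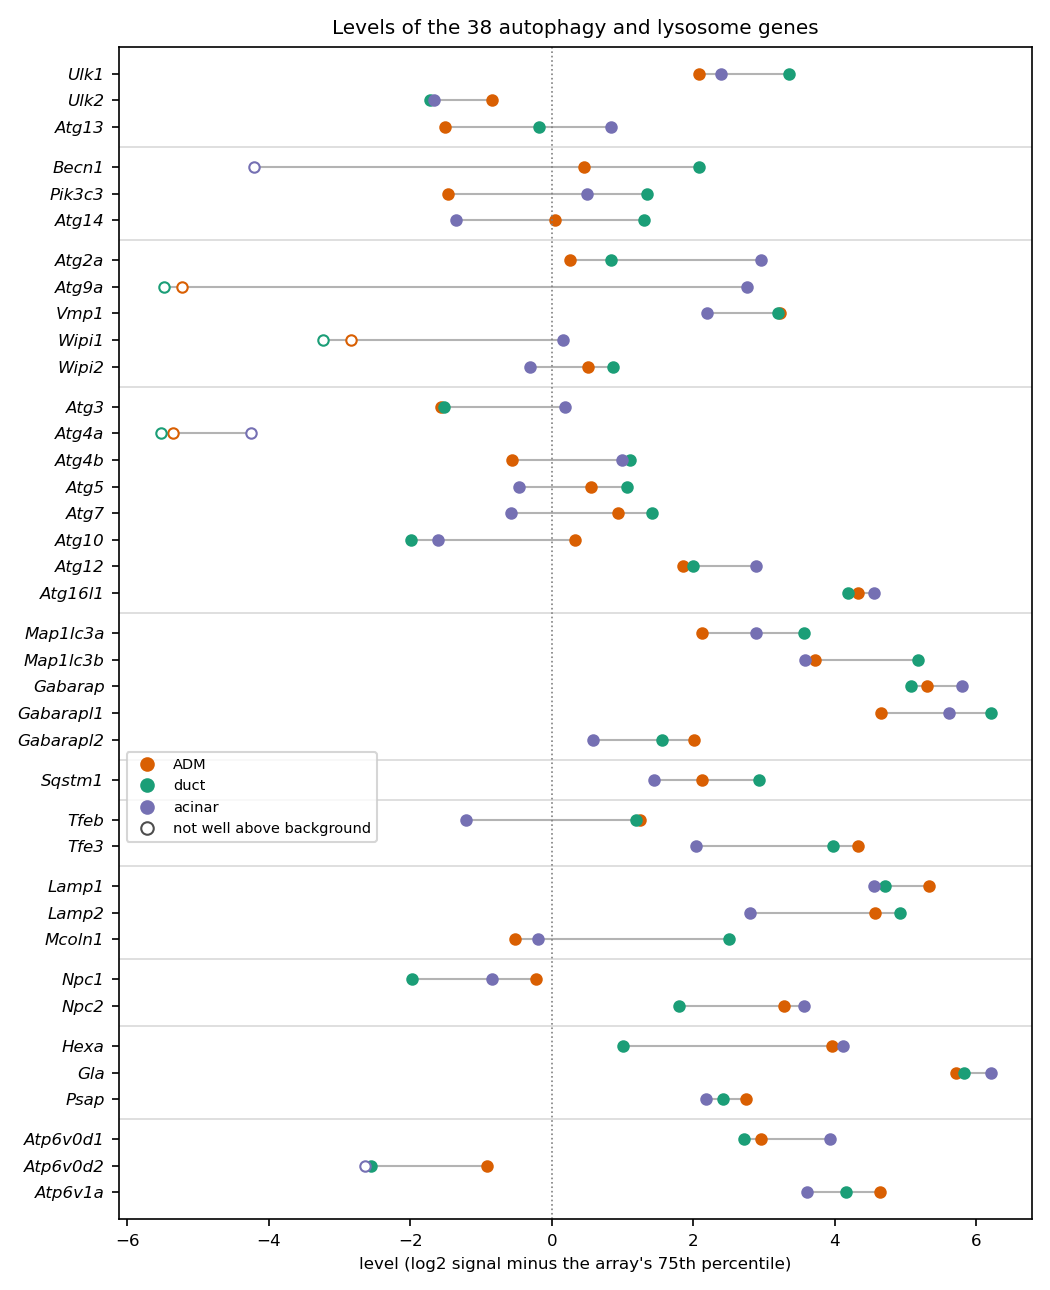
Levels of the 38 genes on the 3 arrays, in the order of their roles, from initiation at the top to the proton pump at the bottom. The x axis is the level in log2 units relative to the array's 75th percentile, each gene is shown by the probe that stands for it, and open circles are probes not well above background. Atg9a and Wipi1 are filled on the acinar array alone, and Becn1 is open on the acinar array alone.

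Against acinar cells, ADM cells had higher signal for Tfeb and Tfe3, the transcription factors that switch on lysosomal genes, for the lysosomal membrane protein Lamp2 and for Becn1. They had lower signal for Atg9a, Wipi1 and Atg2a, 3 of the 5 genes of lipid supply and phagophore growth, and for Atg13. Of the same 5, Vmp1 was 2.04-fold higher in ADM and Wipi2 was within 2-fold (0.82). Of 37 genes compared, 12 (32.4%) were at least 2-fold higher in ADM, where 21.8% of all named genes were, and 8 (21.6%) at least 2-fold lower, where 22.0% of all named genes were. The median difference was 0.14 log2 units, against 0.00 over all 13632 genes compared, of which 3551 were bounds. Over genes well above background on both arrays the medians were 0.14 for the members and −0.26 for all named genes. Under normexp background correction, another way of removing background, the counts were 7 higher and 3 lower of 37. Of 13606 named genes 1707 were then higher and 942 lower. Becn1 (0.83) and Wipi1 (−0.90) came within 2-fold under normexp.

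Against the same acinar array, duct cells had higher signal for Becn1, the lysosomal calcium channel Mcoln1, Atg14, Tfeb and Tfe3, and lower signal for Atg9a, Wipi1, the hydrolase Hexa and Atg2a. In duct cells 11 of 37 genes (29.7%) were at least 2-fold higher, beside 27.4% of all named genes, and 9 (24.3%) at least 2-fold lower, beside 24.6%. The median was 0.24, against 0.00 over all 13826 genes compared, of which 3921 were bounds. Over genes well above background on both arrays the medians were 0.56 for the members and −0.17 for all named genes. With this processing the shares were thus near those of all genes. Under normexp background correction 15 of 37 were higher and 4 lower, beside 2877 and 1501 of 13812 named genes. The share of higher genes was then larger in the members than in all genes.

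Between ADM and duct cells, which were compared in 35 genes, Hexa, Atg10 and the cholesterol exporters Npc1 and Npc2 were higher in ADM, while Mcoln1, Becn1 and 3 of the 5 ATG8 genes were lower. Pik3c3 was lower by its standing probe and not by its second (0.52), and Npc1 came within 2-fold under normexp (0.74). In ADM 5 genes (14.3%) stood at least 2-fold above duct, beside 21.6% of all named genes, and 10 (28.6%) at least 2-fold below it, beside 24.8%. The median was −0.12, against −0.05 over all 14475 genes compared. Under normexp background correction 3 of 35 were higher and 8 lower, beside 1503 and 2176 of 14477 named genes.

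**Figure D2:**
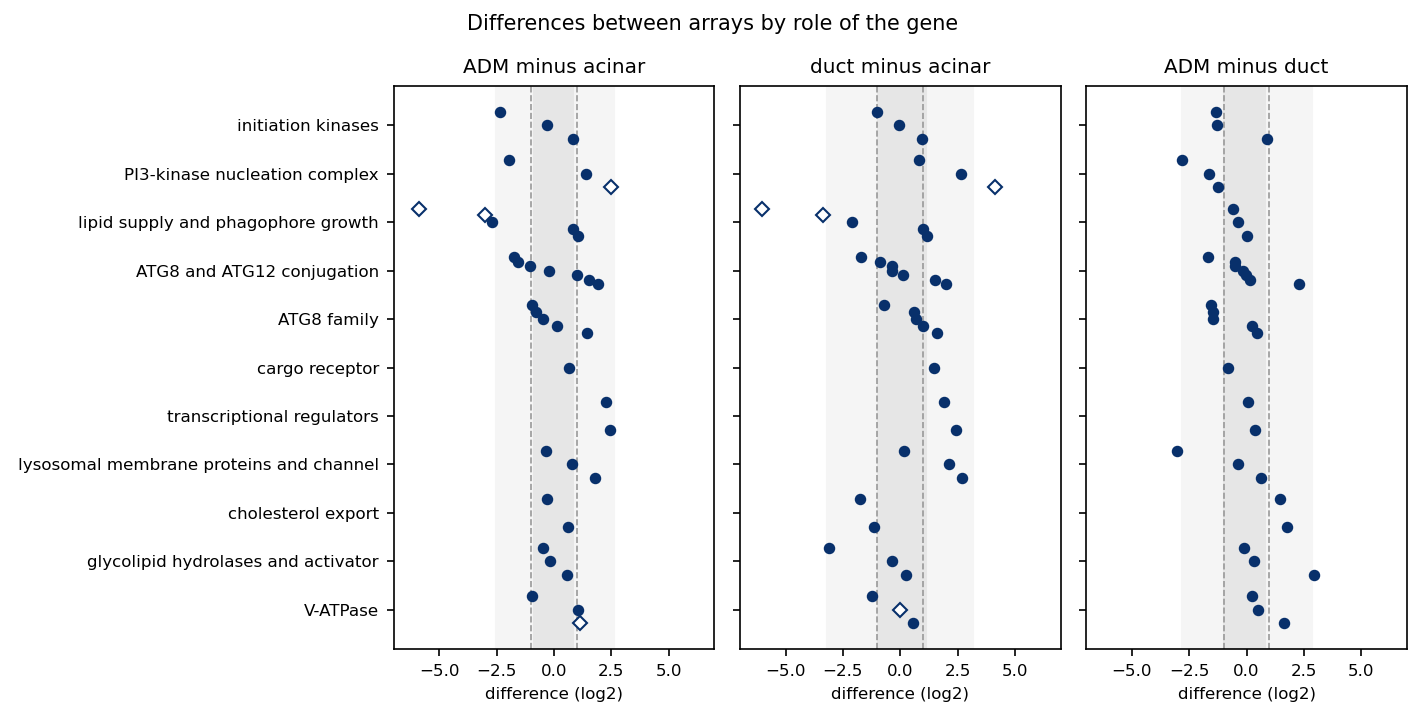
Differences between arrays for each gene, grouped by role, in the 3 comparisons. The x axis is the first array minus the second in log2 units, diamonds are bounds, dashed lines mark 2-fold, and the darker and lighter grey bands hold the central 50% and 90% of all named genes compared. Both transcriptional regulators lie right of the 2-fold line against acinar and near 0 between ADM and duct, and the PI3-kinase complex lies left of the line between ADM and duct.

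Tfeb and Tfe3 encode related transcription factors that move to the nucleus when the lysosome is stressed or nutrients run short, and bind the CLEAR element of autophagy and lysosome genes. Tfeb had a level of 1.25 on the ADM array, 1.19 on the duct array and −1.21 on the acinar array. Its signal was higher than in acinar cells by 2.46 log2 units in ADM and by 2.41 (5.30-fold) in duct cells, and after normexp correction by 1.17 and 1.19. Tfe3 stood at 4.32 on ADM, 3.97 on duct and 2.04 on acinar, 4.84-fold and 3.79-fold above acinar. For both genes the acinar array was the low one, and ADM and duct lay within 0.35 log2 units of each other. A second Tfe3 probe had levels of 3.70, 3.80 and 2.65 in the same order of arrays, so it put ADM and duct above acinar by 1.05 and 1.15 log2 units, less than the first probe's 2.27 and 1.92.

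The CLEAR element has the core TCACGTGA, which reads the same on both strands and contains the E-box CACGTG. The sequences below are shown because they hold this core in the promoter of a member. RefSeq promoter windows of 300 bases, from 250 before to 50 after the start (assembly GRCm38.p6), were found for 31 of the 38 genes and not for Atg12, Atg16l1, Atp6v0d2, Becn1, Map1lc3a, Npc1 and Pik3c3. The core was present in 5 of the 31 (16.1%), beside 304 of 27025 genes with a window (1.12%). The E-box was present in 9 of the 31 (29.0%), beside 2187 of 27025 (8.09%); it was in Atg5, Atg7, Atg14 and Lamp1 besides the 5 genes with the full core. Among other genes of the pathway the core was in 8 of 98 (8.16%). The core is in capitals in each stretch, printed 5′ to 3′ on the strand of the gene:
Atg3, chr16:45158727-45158794, plus strand: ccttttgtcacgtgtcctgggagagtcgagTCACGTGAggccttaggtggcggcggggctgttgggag
Mcoln1, chr8:3500443-3500510, plus strand: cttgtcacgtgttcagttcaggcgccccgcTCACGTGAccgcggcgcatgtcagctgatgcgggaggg
Gla, chrX:134601163-134601255, minus strand: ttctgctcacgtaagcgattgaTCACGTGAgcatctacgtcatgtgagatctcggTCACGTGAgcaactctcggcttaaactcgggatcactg
Atp6v0d1, chr8:105566045-105566098, minus strand: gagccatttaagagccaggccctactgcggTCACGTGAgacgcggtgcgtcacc
Atp6v1a, chr16:44139354-44139421, minus strand: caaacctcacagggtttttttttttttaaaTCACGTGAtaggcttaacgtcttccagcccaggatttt

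The first base of the core lay 72 bases before the start in Atg3, 46 in Mcoln1, 4 in Atp6v0d1 and 132 in Atp6v1a, and Gla had 2 copies, at 228 and 195 bases. A match describes the letters of the window and is not a binding site shown in these cells. These 5 genes did not share a pattern over the arrays. Mcoln1 was highest in duct, Atp6v1a was highest in ADM, Atg3 and Atp6v0d1 were highest in acinar, and Gla lay within 2-fold on all 3. Tfeb and Tfe3 themselves were low on acinar alone.

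Initiation depends on the kinases ULK1 and ULK2 and their regulatory partner ATG13. Ulk1 had levels of 2.08 on ADM, 3.35 on duct and 2.39 on acinar, and was 2.42-fold lower in ADM than in duct. Atg13 stood at −1.51, −0.18 and 0.84 in the same order, so that acinar was highest and ADM lowest. Its signal was 5.06-fold lower in ADM than in acinar and 2.50-fold lower than in duct, and the 2.02-fold gap between duct and acinar was just past the threshold. After normexp correction the ADM-duct difference was −0.56 and the duct-acinar difference −0.49, both within 2-fold. Ulk2 had its higher level on ADM (−0.84, beside −1.72 on duct and −1.67 on acinar), within 2-fold in every comparison. Its second probe read −0.84 on ADM and was not well above background on the other arrays, which bounds that difference at 2.44 over duct and 1.21 over acinar.

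The lipid kinase VPS34 (Pik3c3), Beclin 1 (Becn1) and ATG14, which directs the complex to autophagy, mark the membrane on which the phagophore forms. Becn1 had levels of 0.46 on ADM and 2.08 on duct, and −4.21 on acinar, where it was not well above background. The bound against acinar was at least 5.66-fold higher for ADM and at least 17.5-fold higher for duct. Atg14 stood at 0.05, 1.30 and −1.35, also highest in duct and lowest in acinar. It was 2.64-fold higher in ADM and 6.27-fold higher in duct than in acinar. With normexp correction the ADM-acinar differences of Becn1 and Atg14 became 0.83 and 0.45, within 2-fold, while the duct-acinar differences stayed past it, that of Becn1 at 2.19. Pik3c3 had levels of −1.47, 1.34 and 0.50.

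All 3 genes of this complex were lower in ADM than in duct, Pik3c3 6.99-fold, Becn1 3.09-fold and Atg14 2.38-fold. For Pik3c3 this rests on 1 of 2 probes. The other had levels of −0.48 on ADM, −1.00 on duct and −2.05 on acinar, not well above background there, and put ADM above duct by 0.52 and above acinar by at least 1.56. The direction of Pik3c3 in ADM thus differed between its probes. The Atg14 difference between ADM and duct was −0.90 after normexp correction.

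ATG9A is the membrane protein of the vesicles that seed the phagophore, ATG2A carries lipid into it, VMP1 moves lipid across the endoplasmic reticulum membrane, and WIPI proteins read the lipid mark of VPS34. On acinar the level of Atg9a was 2.76, and it was not well above background on ADM (−5.23) or duct (−5.48). It was at least 60.0-fold lower in ADM and at least 65.5-fold lower in duct than in acinar, the widest gaps among the standing probes, and 1 probe carries both. Normexp correction, which adds an offset of 50 to every signal, left differences of −2.80 and −2.91, smaller than these bounds. Atg2a also had its high level in acinar, 2.96 beside 0.25 on ADM and 0.84 on duct, and was 6.53-fold and 4.35-fold lower on those arrays (−1.67 and −1.24 log2 units after normexp correction). Wipi1 read 0.16 on acinar and was not well above background on ADM (−2.84) and duct (−3.23), at least 8.04-fold and 10.5-fold lower.

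The second Wipi1 probe was well above background on duct alone, at −2.68, and had −2.86 on acinar and −3.47 on ADM. It gave no fold between duct and acinar, and after normexp correction the ADM-acinar difference of the first probe was −0.90 and the duct-acinar difference −1.21. Wipi2 had levels of 0.51, 0.86 and −0.31 on ADM, duct and acinar, 2.24-fold higher in duct than in acinar. Its other probe was well above background on ADM alone (−1.38). That probe put ADM above duct by at least 1.90 log2 units, where the standing probe gave −0.35. It put ADM above acinar by at least 0.67, beside 0.82 by the standing probe. The mean of both probes turned the duct-acinar difference to −0.03. Vmp1 went the opposite way to Atg9a and Atg2a, with 3.22 on ADM, 3.19 on duct and 2.19 on acinar. ADM was 2.04-fold and duct 1.99-fold above acinar, so nearly equal differences fell on either side of 2-fold.

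ATG7, ATG3 and ATG10 act as the activating and conjugating enzymes that attach ATG8 and ATG12 to their targets, ATG5 and ATG12 form a conjugate with ATG16L1, and ATG4 proteases prime ATG8. Atg7 had levels of 0.93 on ADM, 1.42 on duct and −0.58 on acinar, 2.85-fold and 4.01-fold above acinar. Atg5 followed the same order of arrays, with 0.55, 1.06 and −0.46, and was 2.01-fold and 2.87-fold above acinar. Atg3 went the other way, with −1.57 on ADM and −1.53 on duct beside 0.19 on acinar, 3.38-fold and 3.29-fold lower. In all 3 genes ADM and duct lay within 2-fold of each other. A second Atg7 probe was not well above background on any array.

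Atg10 was high in ADM alone, with 0.32 on ADM, −1.99 on duct and −1.61 on acinar. ADM exceeded acinar 3.81-fold and duct 4.94-fold. Its second probe had the same direction, with 1.20 on ADM and no signal well above background on duct (−5.43) or acinar (−4.14), giving at least 4.48 and 3.24 log2 units. Atg4b was low in ADM alone, with −0.57 beside 1.11 on duct and 0.99 on acinar, 3.20-fold and 2.95-fold lower. Atg12 had 1.85, 1.99 and 2.89, 2.06-fold lower in ADM than in acinar, and its second probe was not well above background on any array. Atg16l1 stayed between 4.18 and 4.55.

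Several of these differences depended on how background was removed. Under normexp correction the ADM-acinar differences fell within 2-fold for Atg3 (−0.68), Atg4b (−0.78), Atg5 (0.54), Atg7 (0.77), Atg10 (0.60) and Atg12 (−0.49), and so did the duct-acinar difference of Atg3 (−0.83). The differences of Atg5 and Atg7 between duct and acinar, and of Atg4b and Atg10 between ADM and duct, stayed past 2-fold under it, that of Atg10 at 1.03.

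The ATG8 family comprises LC3 and GABARAP proteins, which are anchored in the autophagosome membrane. Map1lc3b, whose product is the usual marker of autophagosomes, had levels of 3.72 on ADM, 5.18 on duct and 3.58 on acinar. Map1lc3a read 2.12, 3.57 and 2.88, and Gabarapl1 4.65, 6.20 and 5.61. In all 3 genes duct was the high array, and ADM lay below duct by 2.74-fold for Map1lc3a, 2.74-fold for Map1lc3b and 2.93-fold for Gabarapl1. Against acinar, Map1lc3b was 3.03-fold higher in duct and level in ADM (0.14), and Gabarapl1 and Map1lc3a were within 2-fold in both.

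Gabarapl2 was the ATG8 gene highest in ADM, with 2.01 beside 1.56 on duct and 0.58 on acinar. It was 2.69-fold above acinar in ADM and 1.97-fold in duct. Gabarap had 5.30, 5.07 and 5.79, within 2-fold in all comparisons, while its second probe read 4.76, 4.70 and 6.62 and placed ADM and duct 1.86 and 1.92 log2 units below acinar. By the probes that stand for them, duct was thus the high array for 3 of these genes, ADM for Gabarapl2 and acinar for Gabarap. The differences past 2-fold in Map1lc3a, Map1lc3b, Gabarapl1 and Gabarapl2 held under every alternative with a value. Sqstm1, the cargo receptor p62 that links ubiquitin to ATG8, had 2.12 on ADM, 2.93 on duct and 1.45 on acinar and was 2.80-fold higher in duct than in acinar. ADM lay between, 1.59-fold above acinar and 1.76-fold below duct.

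LAMP1 and LAMP2 are the main glycoproteins of the lysosomal membrane, and LAMP2 is needed for fusion of autophagosomes with lysosomes. Lamp2 had levels of 4.57 on ADM, 4.92 on duct and 2.80 on acinar, 3.42-fold and 4.35-fold above acinar. Its other probe, matched to a different Lamp2 transcript, read 2.94, 1.42 and 1.77. Both probes put ADM above acinar, by 1.77 and 1.17 log2 units, and they differed in direction for duct against acinar (2.12 and −0.34) and for ADM against duct (−0.35 and 1.52). Lamp1 lay within 2-fold, with 5.33, 4.71 and 4.56.

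Mcoln1 encodes the lysosomal calcium channel TRPML1. It was high on the duct array alone, with 2.51 beside −0.52 on ADM and −0.19 on acinar. Duct was 6.47-fold above acinar and ADM 8.18-fold below duct, which became 1.97 and −2.10 log2 units after normexp correction. ADM and acinar differed by −0.34. Its promoter stretch, printed above, holds the CLEAR core.

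NPC2 and NPC1 hand cholesterol from the lumen of the lysosome to its membrane for export. Npc1 had levels of −0.23 on ADM, −1.98 on duct and −0.85 on acinar. Npc2 had 3.28, 1.80 and 3.57. Duct was the low array for both genes, 2.18-fold and 3.40-fold below acinar, and ADM was 3.36-fold and 2.78-fold above duct. Between ADM and acinar both were within 2-fold. After normexp correction the difference of Npc2 between ADM and duct remained past 2-fold, while the others became −0.67 (Npc1, duct-acinar), 0.74 (Npc1, ADM-duct) and −0.95 (Npc2, duct-acinar).

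Hexa encodes a subunit of the hexosaminidase that cleaves gangliosides. It had levels of 3.96 on ADM, 1.01 on duct and 4.12 on acinar, the same order of arrays as Npc2. Duct was 8.67-fold below acinar and 7.72-fold below ADM, and ADM and acinar differed by −0.17. These differences held under every alternative with a value. Gla, the galactosidase of globoside breakdown, ranged from 5.71 to 6.20 over the arrays, and Psap, the precursor of the saposins that help these enzymes, from 2.18 to 2.74. Neither reached 2-fold.

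The V-ATPase pumps protons into the lysosome, with a membrane sector V0 and a catalytic sector V1. Atp6v0d1 and Atp6v0d2 encode alternative forms of the V0 d subunit, of which d1 is broadly expressed and d2 is known from osteoclasts, macrophages and some epithelia. Atp6v0d1 had levels of 2.96 on ADM, 2.71 on duct and 3.93 on acinar, 2.32-fold lower in duct than in acinar and 1.96-fold lower in ADM. Atp6v0d2 had −0.92 on ADM and −2.56 on duct, and −2.64 on acinar, where it was not well above background. ADM was the high array for d2, 3.12-fold above duct and at least 2.19-fold above acinar, and the acinar array the high one for d1. A second Atp6v0d2 probe was not well above background on any array. Atp6v1a, the catalytic subunit, had 4.64, 4.16 and 3.61, 2.05-fold higher in ADM than in acinar, where its second probe gave 0.36 log2 units.

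Under normexp correction the Atp6v0d2 differences became 0.63 against duct and 0.11 against acinar, and that of Atp6v0d1 between duct and acinar became −0.51, all within 2-fold. Macrophage markers were also higher on the ADM array. All 14 of the list were well above background there, with a median level of 4.39 beside 2.17 on duct and 1.94 on acinar, where Cd14 was not well above background. ADM exceeded acinar at least 2-fold in 11 of the 14, and duct in 11 of the 14, beside 21.8% and 21.6% of all named genes. Against duct 1 marker, Cd14, was at least 2-fold lower in ADM (1.72 beside 2.93). Their summed linear level was 1085 on ADM, 614 on duct and 1446 on acinar with Itgam, and 339, 76.7 and 83.9 without that marker. The array with the highest sum was thus acinar with Itgam and ADM without it, and whether this very bright probe measures Itgam was not tested. The part of macrophages in the ADM values of Atp6v0d2, Npc1, Npc2 and Hexa was not tested.

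**Figure D3:**
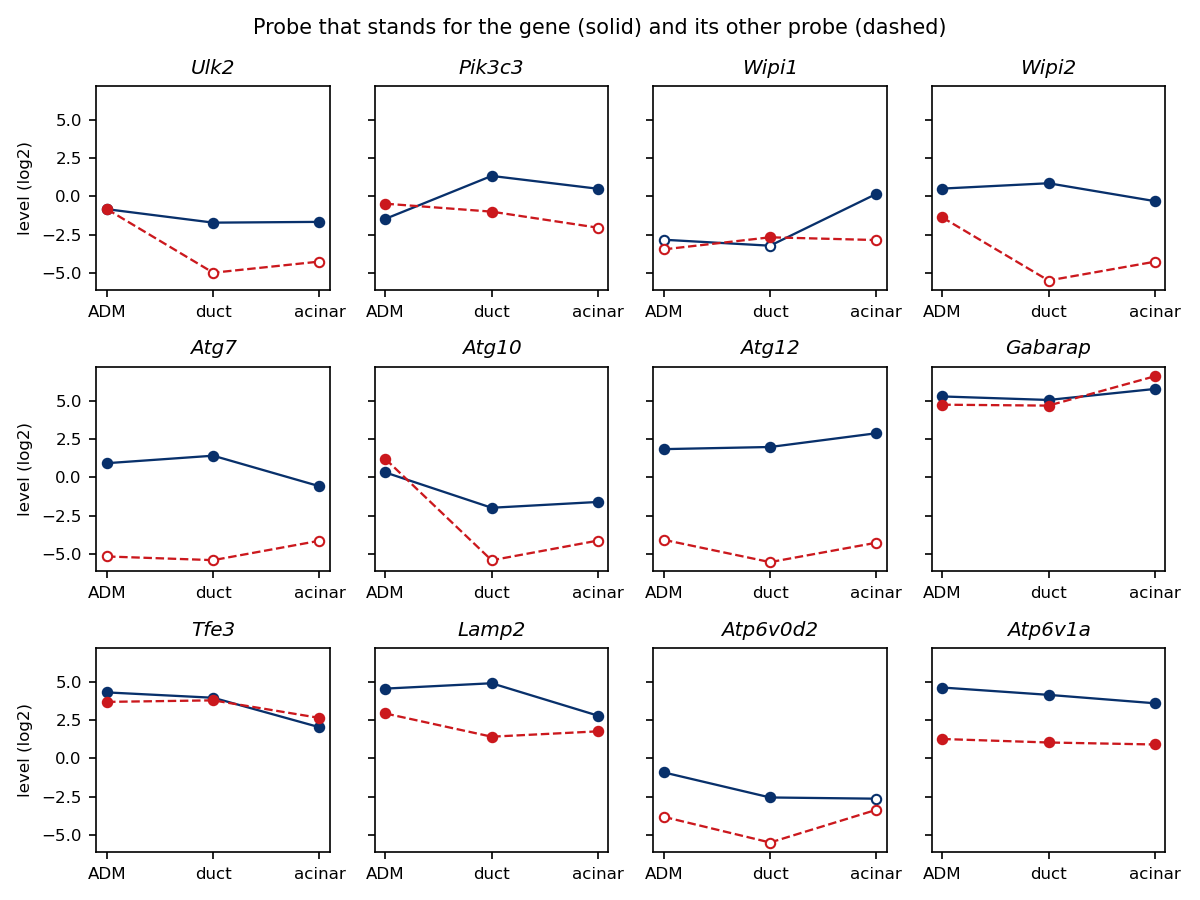
Levels of both probes of the 12 genes with 2 probes on the ADM, duct and acinar arrays. The y axis is the level in log2 units, the solid line is the probe that stands for the gene, and open circles are not well above background. The lines of Tfe3 and Atp6v1a run in parallel directions against acinar, and those of Pik3c3 and Lamp2 cross in direction.

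Second probes allowed a limited check within the arrays. Where the standing probe was at least 2-fold apart and the second was compared, the second had the same direction in 4 of 5 genes for ADM against acinar, 1 of 3 for duct against acinar and 1 of 2 for ADM against duct. Over all named genes with a second probe the shares were 62.0%, 62.1% and 66.1%. A second probe whose bound was set to 0 has no direction and was counted as not the same. Wipi1 in duct against acinar was such a case (0.00), and the shares of all genes were counted by the same rule. The 26 genes with 1 probe, among them Tfeb, Atg9a, Hexa and Mcoln1, have no such check.

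Over the 33 genes well above background on all 3 arrays, the duct array was highest in 13 (39.4%), ADM in 10 (30.3%) and acinar in 10 (30.3%), beside 35.5%, 22.3% and 42.3% of 9539 named genes measured on all 3. Acinar was lowest in 14 (42.4%), ADM in 11 (33.3%) and duct in 8 (24.2%), beside 29.8%, 31.6% and 38.6%. ADM lay between the other arrays in 12 of the 33 (36.4%), beside 46.1%. All arrays lay within 2-fold of each other in 6 (18.2%), beside 32.9% of those genes, and the median range was 1.55 log2 units beside 1.39. Of the 55 differences of at least 2-fold, 34 remained at least 2-fold apart in the same direction under each alternative for background and scaling, 9 of 20 for ADM against acinar, 14 of 20 for duct against acinar and 11 of 15 for ADM against duct.

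Markers of the labelled cells and of neighbouring cells bear on these values. The median level of the 10 acinar markers was 9.75 for acinar, 6.11 for ADM and 3.23 for duct, and all 10 were well above background on every array. The 10 duct markers had medians of 3.39 on duct, 1.47 on ADM and −0.93 on acinar. Cftr was not well above background on any array, and Krt7 and Car2 were not on acinar. Fibroblast markers had medians of 4.02 on ADM, 4.93 on duct and 2.00 on acinar. They were at least 2-fold higher than in acinar in 9 of 10 for ADM and 8 of 10 for duct, beside 21.8% and 27.4% of all named genes. In duct 1 of the 10 was at least 2-fold lower. The summed fibroblast level was 329 on ADM, 320 on duct and 78.9 on acinar, and Postn on duct and Thy1 on acinar were not well above background. Genes low on acinar and alike on ADM and duct by their standing probes, such as Tfeb, Tfe3, Lamp2, Atg5 and Atg7, shared this order with the fibroblast markers. The second Lamp2 probe did not, with 2.94 on ADM, 1.42 on duct and 1.77 on acinar. The part of fibroblasts was not tested. Of 6 endothelial markers 4, 4 and 2 were well above background on ADM, duct and acinar, and of 7 neutrophil markers 4, 2 and 2; S100a8 and S100a9 were not on duct or acinar.

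**Figure D4:**
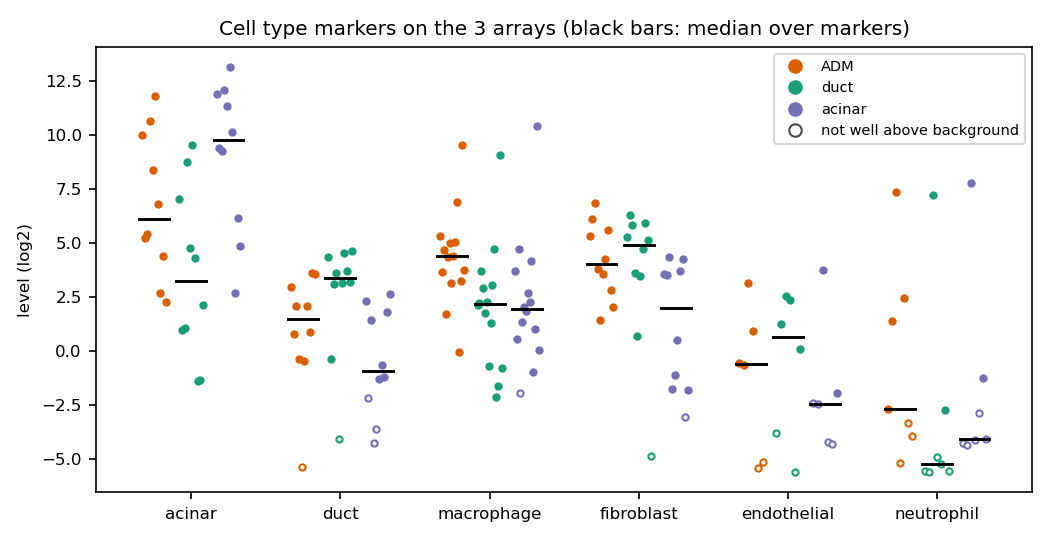
Levels of the cell type markers on the 3 arrays. The y axis is the level in log2 units, each point is 1 marker gene, black bars are medians over the markers of a type, and open circles are not well above background. By their medians, acinar markers are highest on the acinar array, duct markers on the duct array and macrophage markers on the ADM array, and fibroblast markers are lower on acinar than on both others; single markers such as Krt7, Cd14 and Itgam depart from this.

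A list of 124 other genes of the pathway was compared by the same main processing, with up to 3 genes named per role and comparison. Second probes and the alternatives for background and scaling were not examined gene by gene for this list. Each fold given for these genes therefore rests on the standing probe and the main processing alone. Of 117 compared, 35 stood at least 2-fold above acinar in ADM and 26 below it, with a median of 0.05, and in duct 32 of 117 stood above acinar and 27 below it, with a median of 0.08. Between ADM and duct 31 of 121 were higher in ADM and 30 lower, with a median of 0.15. These counts are shares of 29.9% and 22.2%, 27.4% and 23.1%, and 25.6% and 24.8%, which may be read against the shares of all genes given above.

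Among genes that control initiation, 5 of 8 were higher in duct than in acinar and 0 lower (27.4% and 24.6% of all genes), and 5 of 9 were lower in ADM than in duct with 1 higher (24.8% and 21.6% of all genes). Of those higher in duct than in acinar, Rb1cc1, Prkaa1 and Prkaa2 were bounds, not well above background on acinar. Atg101, a partner of ATG13, was above acinar by 1.37 log2 units in ADM and 1.83 in duct. Ambra1, a scaffold of the Beclin 1 complex, was 2.13 above acinar in duct and stood at 0.80 on ADM and 2.52 on duct, a difference of −1.72. Mlst8 and Deptor, components of the mTOR complex that restrains ULK1, were 3.54-fold and 3.35-fold lower in ADM than in duct. Mtor, the kinase of that complex, went the other way and is named here after its values were seen. It had 1.04 on ADM and was not well above background on duct or acinar. ADM was thus at least 19.9-fold above duct and at least 8.49-fold above acinar. In the PI3-kinase group, the complex subunit Nrbf2 was 4.37-fold lower in ADM than in acinar, while Bcl2, whose product binds Beclin 1, was 3.99-fold higher. Uvrag, which forms the VPS34 complex of endosomes, was 5.03-fold lower in duct than in acinar and 3.37-fold higher in ADM than in duct.

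Of 8 genes of phagophore growth and conjugation compared between ADM and acinar, 1 was higher and 4 lower (21.8% and 22.0% of all genes), and of 10 compared between duct and acinar 3 were higher and 2 lower (27.4% and 24.6%). In ADM against acinar, Tecpr1 was 4.60-fold and Atg16l2 3.59-fold lower, and the protease Atg4c 3.57-fold higher. In duct against acinar, Atg4c was also higher (6.13-fold), while Tecpr1 (0.03) and Atg16l2 (0.08) were within 2-fold. Of 10 compared between ADM and duct, 2 were higher in ADM and 5 lower (21.6% and 24.8% of all genes). Tecpr1 (−2.23) and Atg16l2 (−1.93) were among the lower. Of 9 cargo receptors, 4 were at least 2-fold higher and 2 lower in ADM against acinar (21.8% and 22.0% of all genes). In duct against acinar 4 were higher and 1 lower (27.4% and 24.6%). Nbr1, a receptor related to p62, was at 1.63 on ADM, 1.08 on duct and −0.37 on acinar, and the mitophagy receptor Bnip3l was 2.01-fold and 2.16-fold higher in ADM and duct. Tollip went the other way, 2.54-fold and 3.72-fold lower. Of 12 genes of fusion with the lysosome, 5 were higher in ADM than in duct and 1 lower (21.6% and 24.8% of all genes), and in duct against acinar 3 were higher and 5 lower (27.4% and 24.6%). Plekhm1, an adaptor of RAB7, had 0.19 on ADM, −3.21 on duct and 0.89 on acinar, and Rab7 itself and the SNARE gene Vamp8 were 2.61-fold and 2.66-fold higher in ADM than in duct.

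Lysosomal hydrolases and activators, the largest group, included 11 of 28 that were higher in ADM than in acinar and 5 that were lower, beside 21.8% and 22.0% of all genes. Glb1, a galactosidase, was 5.98-fold lower in ADM and 7.47-fold lower in duct than in acinar. Lipa, the lysosomal acid lipase, was 16.6-fold higher in ADM than in duct, and the sialidase Neu1 5.41-fold higher in duct than in acinar. Macrophages are also rich in acid lipase, and their markers were high on the same ADM array; their part was not tested.

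Among V-ATPase subunits other than those above, ADM exceeded acinar in 4 of 13 and lay below it in 0, and it exceeded duct in 5 of 14 and lay below it in 1. The shares of all genes were 21.8% and 22.0% against acinar, and 21.6% and 24.8% against duct. Atp6v0c, the proteolipid ring subunit, was 2.36-fold, Atp6v1g1 2.08-fold and Atp6v0e 2.06-fold above acinar, and 9 of the 13 were within 2-fold. Genes of nutrient sensing at the lysosome differed in both directions. Rragc, a RAG GTPase that recruits mTORC1, was 7.50-fold and 4.33-fold lower in ADM and duct than in acinar, and Lamtor2, of its membrane anchor, 4.71-fold and 2.35-fold lower. Lamtor3 of the same anchor was 3.89-fold and 3.44-fold higher. Among lysosomal membrane genes, Tmem192 had 1.81 on ADM, −1.65 on duct and 0.33 on acinar, and the cystine exporter Ctns was 3.48-fold above acinar and 3.02-fold above duct in ADM.

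Other transcriptional regulators differed among themselves. Foxo3, a forkhead factor that controls autophagy genes, had 2.19 on ADM, 0.55 on duct and 5.51 on acinar, 9.96-fold and 31.2-fold lower than in acinar. Mitf, of the same family as Tfeb, was 2.60-fold lower in ADM than in acinar. Zkscan3, a repressor of autophagy genes named here after its values were seen, had 0.76 on ADM, 0.60 on duct and −2.12 on acinar, where it was not well above background. Its bounds were at least 2.80 and 2.64 log2 units above acinar, so it was low on the same array as Tfeb and Tfe3. Genes for the delivery of hydrolases differed most in M6pr, a mannose 6-phosphate receptor, with 1.15 on ADM, 4.05 on duct and 0.38 on acinar. The other such receptor, Igf2r, had 5.39, 3.85 and 4.95, so that duct was its low array and the high array of M6pr.

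**Figure D5:**
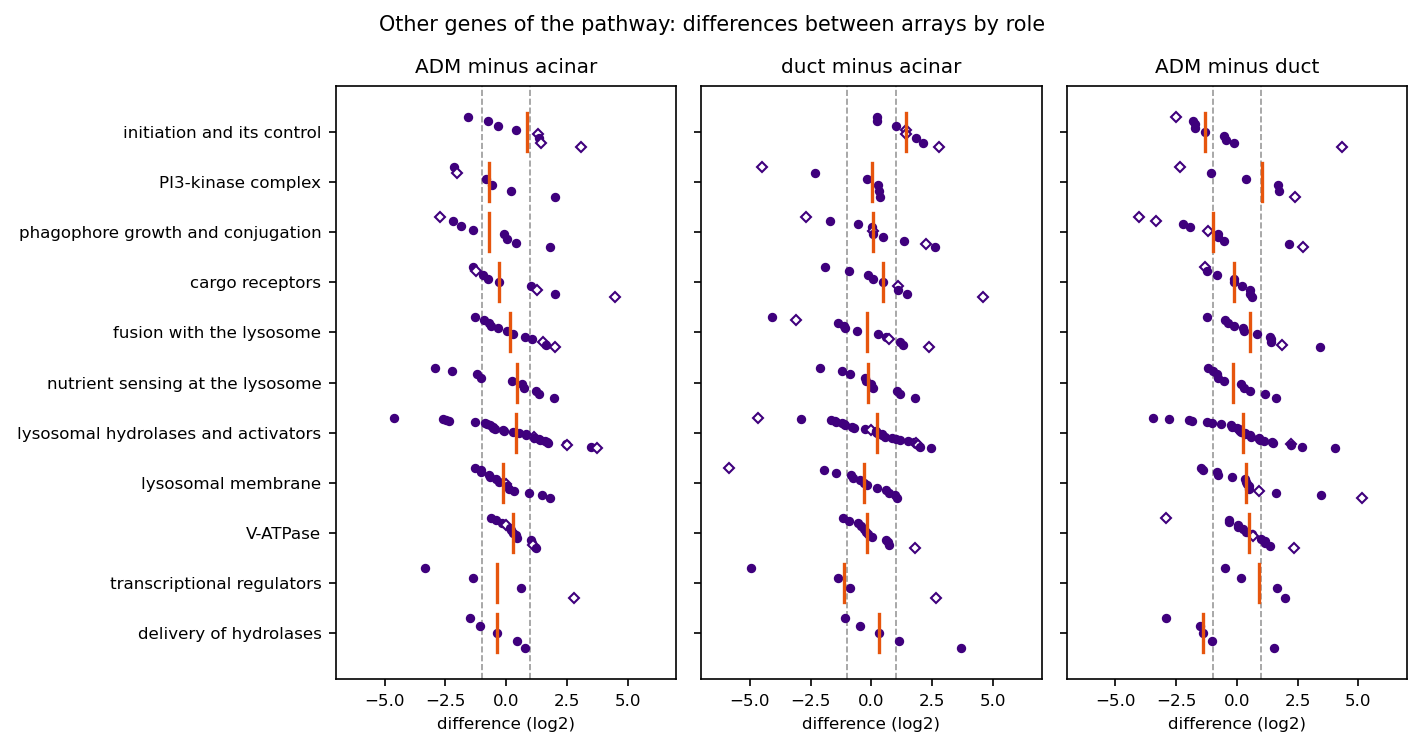
Differences between arrays for the 124 other genes of the pathway, grouped by role. The x axis is the first array minus the second in log2 units, diamonds are bounds, dashed lines mark 2-fold and orange bars are the median of a role. Initiation genes have a median of 1.41 for duct minus acinar and −1.32 for ADM minus duct. The former is set by the bounds of Prkaa2 (1.41) and Prkaa1 (1.42), which were not well above background on acinar.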

How the data were processed

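The deposited scanner tables of 3 Agilent 1-colour arrays hold spot intensity. Agilent Feature Extraction 11.5.1.1, per the submitters' processing notes, gave the processed signal, and flags of 0 or 1 for background, saturation and outliers are in the deposited files. Control and outlier spots were left out, repeated spots averaged as log2, and each array's 75th percentile subtracted. The authors' deposited value table of log2 values matched the processed signal on a log2 scale apart from a constant for each array. Probes were named by RefSeq accession (GRCm38.p6 table; probes annotated on mm9), 28020 of 55664 with 1 symbol, and the probe with the highest mean stood for a gene. Comparison of a gene needed signal well above background on at least 1 array of the pair, with the other side raised to the lowest level of probes well above background. With 1 array per group no test was run, and genes were counted at 2-fold. All members past 2-fold, and the ATG8, V0 d and TFEB/TFE3 genes, are given with levels; of other pathway genes, up to 3 per role and comparison with the largest difference measured on both arrays. A few such pathway genes are counted but not reported here by name. The members and lists were chosen with earlier results of these data known. The 9 alternatives covered background (normexp, offset 50, limma 3.58.1 in R 4.3.3), scaling, probe choice, filter and the authors' table. Calculations used Python 3.11.15, pandas 2.3.3 and numpy 2.4.6 and were tested on simulated data.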

Additional observations from a re-analysis of the deposited data

How the results depend on the processing

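Of the 55 differences past 2-fold, 29 kept direction and 2-fold under every alternative with a value; 34 did so under normexp, and 51 under median scaling. The authors' value table changed none of the 55. Normexp background correction gave 7 higher and 3 lower genes for ADM against acinar, 4 lower and a median of 0.62 for duct against acinar, and 3 higher for ADM against duct. It raised the share of higher among called genes of the whole array from 49.7% to 64.4% (ADM-acinar) and from 52.7% to 65.7% (duct-acinar). Scaling to the array median shifted all differences by 0.23, 0.39 and −0.16 and gave medians of 0.37, 0.63 and −0.28 for ADM-acinar, duct-acinar and ADM-duct; the shares of higher for the first and second became 58.9% and 64.7%. Second probes, which fewer members have (8, 6 and 9 compared by that probe), gave 5 higher and 1 lower with a median of 1.11 for ADM-acinar, 2 and 1 with 0.07 for duct-acinar, and 0 lower with 0.52 for ADM-duct. The mean of probes gave a median of 0.04 for ADM-duct. The median was −0.01 for ADM-acinar with no filter, and 0.56 for duct-acinar with genes well above background on all arrays or on both arrays. Reversed were Pik3c3 by its second probe (1.56 for ADM-acinar, 0.52 for ADM-duct), Lamp2 by its second probe (−0.34, duct-acinar) and Wipi2 by the mean of probes (−0.03, duct-acinar). The cause was not tested. With 1 array per group no array could be left out, and no paired analysis was possible because each group has 1 array. On the dimmer acinar array, genes near background carry the least information.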
